A study of Mus musculus with 6 samples.

Results

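The amino acid transporter genes of the solute carrier families Slc1, Slc3, Slc6, Slc7, Slc36, Slc38 and Slc43 were examined in regulatory T (Treg) cells with and without a floxed Tkt gene. Members were all genes whose symbol names one of these 7 families, which gave 57 of the 18493 genes in the table. The symbols Slc6a19os and Slc7a6os, which name genes on the opposite strand of a transporter gene, match as well and are not transporters. Of the 57 genes, 31 had enough reads to test and 26 did not.

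Treg cells, defined by the transcription factor Foxp3, are CD4 T cells that hold immune responses in check. CD4+CD25+YFP+ cells were sorted from spleen and lymph node of C57BL/6 female mice aged 7 weeks, and their mRNA was sequenced. The 3 wild-type (WT) libraries came from Foxp3cre/+ mice and the 3 conditional knockout (cKO) libraries from Foxp3cre/+ TKTfl/fl mice, so both groups carried 1 Foxp3-driven Cre allele. The mice were untreated. Foxp3 lies on the X chromosome, so these females are chimeric, with the Cre allele active in only part of their Treg cells, and sorting on YFP selects those. Tkt encodes transketolase, an enzyme of the non-oxidative pentose phosphate pathway, and the study addressed control of Treg cell function by that pathway.

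Amino acid transporters set how fast a T cell can take up the building blocks of protein and the nitrogen it needs for growth. Many work as exchangers that let 1 amino acid in for another out. The heteromeric transporters pair a light chain of the Slc7 family, which forms the transport path, with a heavy chain of the Slc3 family, which brings it to the cell surface. Uptake of glutamine, leucine and arginine feeds the kinase mTORC1, which several lysosomal transporters also inform, and activated T cells are known to raise Slc7a5, Slc3a2, Slc1a5 and the Slc38 carriers.

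The libraries held 17180577 to 18215168 estimated reads. In CPM (counts scaled to library size after TMM), Tkt ranged from 97.1 to 126 in WT and from 31.9 to 52.5 in cKO. Its log2 fold change was -1.41 ± 0.19 (SE), with an adjusted p of 0.0516 in edgeR's quasi-likelihood test. The targeted gene itself thus fell just short of the threshold of 0.05 used below, so a gene that was not called is not shown to be unchanged. Treg markers were abundant in every library, Foxp3 at 458 to 686 CPM and Il2ra at 628 to 833 CPM. WT2 and cKO1 stood apart from the rest on the first principal component of all tested genes (36.1% of the variance), at scores of 25.4 and 33.2. Scores of the remaining libraries were 8.11 for cKO2 and -25.9 to -18.4 for WT1, WT3 and cKO3. Among other cell types, the summed stromal and endothelial markers stood at 3.49, 20.4 and 4.51 CPM in WT and at 16.6 to 21.4 CPM in cKO. The summed erythroid markers reached 197 CPM in cKO1 against 0.277 to 5.56 CPM elsewhere, the myeloid markers ranged from 38.1 to 73.7 CPM in WT against 42.9 to 111 in cKO, and the B cell markers from 64.3 to 86.0 CPM in WT against 48.8 to 108 in cKO. The CD8 T and NK cell markers stood at 37.8 to 42.4 and 34.7 to 42.0 CPM, with Ncr1 at 0 in every library but cKO1. The plasma cell markers summed to 11.5 to 14.6 CPM in WT and 12.7 to 15.8 CPM in cKO, and the dendritic cell markers to 2.33 to 8.43 and 2.73 to 9.38 CPM. Nothing in the labels says whether a library pools animals, so a p-value here reflects only how these 6 libraries vary.

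In length-adjusted levels, 3 transporters dominated the Treg cells. Slc1a5 (ASCT2, an exchanger of glutamine and other neutral amino acids), Slc38a2 (SNAT2, a sodium-coupled importer of neutral amino acids) and Slc3a2 (CD98hc, the common heavy chain) together made up 55.4% to 64.1% of the summed FPKM (the authors' values per kilobase and library depth) of all 57 genes in a library. Slc1a5 ranged from 125.24 to 158.54 FPKM over the 6 libraries, Slc38a2 from 63.72 to 155.64 and Slc3a2 from 54.67 to 126.56. Next in mean FPKM came Slc38a10 at 29.3, Slc7a6os at 26.0, Slc6a6 at 23.4, Slc38a6 at 23.2, Slc38a1 at 19.7, Slc7a5 at 19.2, Slc7a6 at 17.2, Slc7a1 at 12.0 and Slc43a2 at 10.6. Over the 6 libraries, neighbours among these 12 genes overlapped in range except between Slc3a2 and Slc38a10 and between Slc7a6 and Slc7a1. Of the 31 tested genes, 11 had a mean FPKM under 1.

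**Figure D1:**
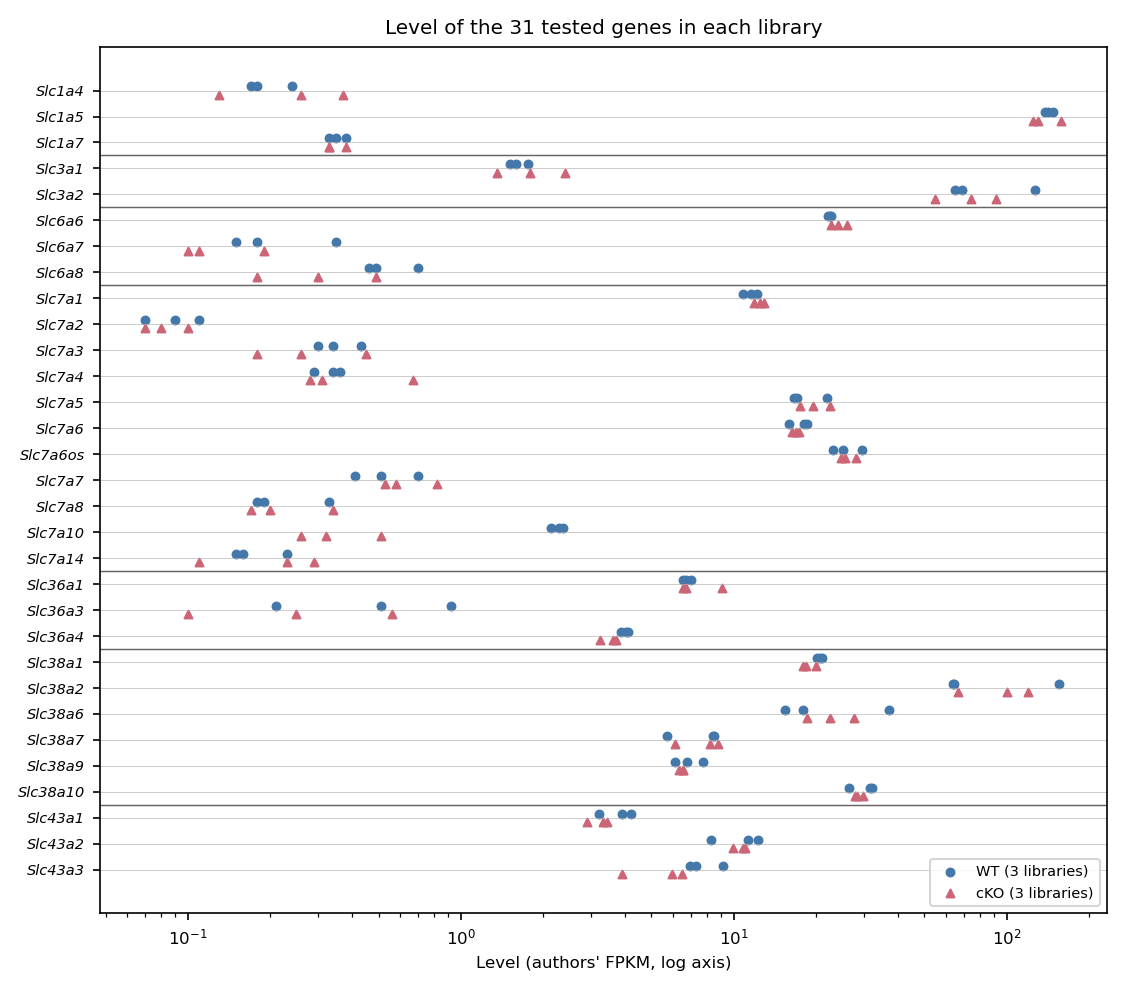
Level of each tested gene in each library, as the authors' FPKM on a log axis, with WT as circles and cKO as triangles and lines between families. Slc1a5, Slc38a2 and Slc3a2 lie farthest right, and the WT and cKO points are separate with a wide gap for Slc7a10 (2.14 to 2.38 against 0.26 to 0.51 FPKM).

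The comparison of cKO with WT called 1 of the 31 tested genes. A called gene had an adjusted p under 0.05 in edgeR's quasi-likelihood test, and 0.21% of all 12887 genes tested were called. Slc7a10 was called lower, as were 0.202% of all genes, and no member was called higher (0.00776% of all genes). DESeq2 called Slc7a10 alone among the members and 1.29% of all genes. An unadjusted p under 0.05 was found for 2 of the 31 genes and for 7.69% of all genes. The fitted log2 fold change was above 0 in 13 genes and below 0 in 18, with a median of -0.03 beside 0.00 for all genes tested. Groups did not overlap for 2 of the 31 genes, both lower in cKO, whereas 14.2% of all genes tested did not overlap, 8.12% with cKO lower and 6.1% with cKO higher. For 21 of the 31 genes the 95% confidence interval of the change lay within 2-fold in either direction, and for the remaining genes other than Slc7a10 the interval reached beyond 2-fold and included no change.

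**Figure D2:**
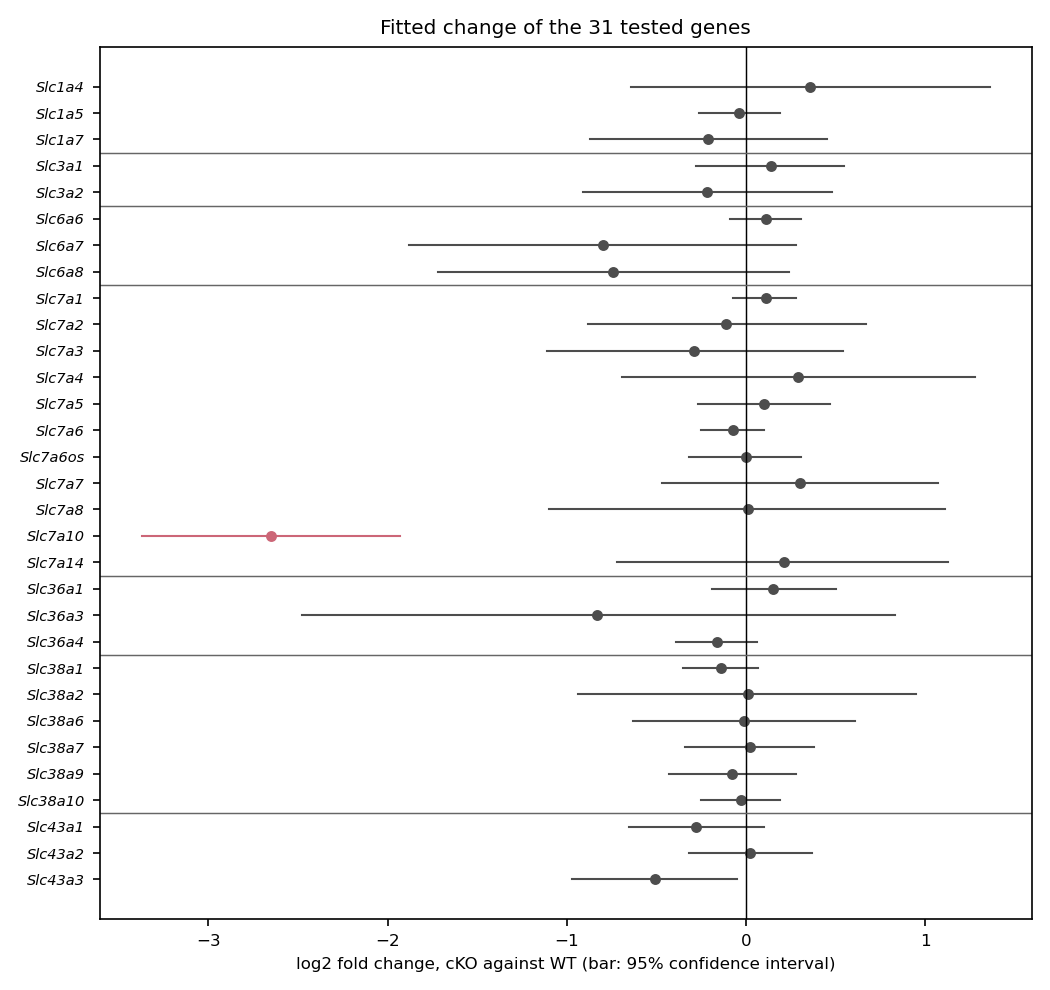
Fitted log2 fold change of cKO against WT for each tested gene, with its 95% confidence interval as a bar and lines between families. The interval of Slc7a10 (-3.37 to -1.93) lies below those of all other tested genes except the low Slc36a3 (-2.48 to 0.83), whose bar is the widest and overlaps it.

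Slc7a10 encodes asc-1, a light chain that exchanges small neutral amino acids such as serine, alanine and glycine. It lies on the plus strand of chromosome 7 in mm10, from 35186095 to 35201116 (Entrez 53896). It had 87.82, 73.86 and 85.88 estimated reads in the WT libraries and 9, 20 and 11 in the cKO libraries. Every cKO library lay far below every WT library, and the 3 WT libraries were close together. In CPM these were 4.88, 4.42 and 4.84 against 0.523, 1.09 and 0.613, with means of 4.72 ± 0.253 and 0.742 ± 0.305 (SD, n = 3). The log2 fold change was -2.65 ± 0.31 (SE; adjusted p = 0.0449 in edgeR's quasi-likelihood test). WT2 had a stromal and endothelial marker sum of 20.4 CPM and a principal component score of 25.4, both within the range of the cKO libraries. Its Slc7a10 level was 4.42 CPM, but this is only 1 library. The part of other cell types or of the state of the libraries in this result was not tested. The call was close to the threshold: without any 1 library the adjusted p rose to between 0.0569 (without WT2) and 0.191 (without WT1), while the log2 fold change stayed between -3.04 and -2.46. Of these single omissions, only that of WT2 left any gene called among all genes. Without both WT2 and cKO1 the adjusted p was 0.0617, and with the authors' FPKM in limma it was 0.0532. In the 7 alternatives that called Slc7a10, the adjusted p ran from 3.85e-08 (DESeq2) to 0.0471 (edgeR with RLE scaling). In bulk samples such as these, fewer cells that express a gene and less RNA per cell cannot be told apart.

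The nearest measured genes on both sides of Slc7a10 stood lower in every cKO library as well, though neither was called. They were picked by position, within 100000 bases, after the Slc7a10 result was seen. Cebpa, a transcription factor of myeloid and fat cells, lies upstream at positions 35119293 to 35121928. It stood at 6.21, 5.98 and 5.18 CPM in WT against 1.40, 2.56 and 1.5 in cKO, a log2 fold change of -1.66 ± 0.27 (SE) with an adjusted p of 0.0836 in edgeR's test. The groups did not overlap. Lrp3, a receptor-like protein of the LDL receptor family that lies downstream on the opposite strand, was too low to test, at 0.388, 0.777 and 0.394 CPM in WT against 0, 0.0545 and 0 in cKO. GENCODE exons of Lrp3 and Slc7a10 share 377 bases, 17.9% of the exonic bases of Slc7a10, and without strand the reads there cannot be assigned to either gene. Gpatch1, an RNA-processing protein encoded farther along, stood at 30.4 ± 2.04 CPM in WT against 29.8 ± 1.67 in cKO (SD, n = 3; adjusted p = 0.984 in edgeR's test). Myeloid cells express Cebpa. The summed myeloid markers stood at 38.5, 73.7 and 38.1 CPM in WT against 76.9, 111 and 42.9 in cKO. Within cKO, cKO2 was highest for both these markers and Cebpa. Within WT, WT2 was highest for the markers and WT1 for Cebpa. The part of myeloid cells in the Cebpa difference was not tested. Wdr88, which lies beyond Lrp3 and overlaps Gpatch1 in position, was near 0 in both groups, at 0 to 0.0555 CPM in WT against 0 to 0.111 in cKO.

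**Figure D3:**
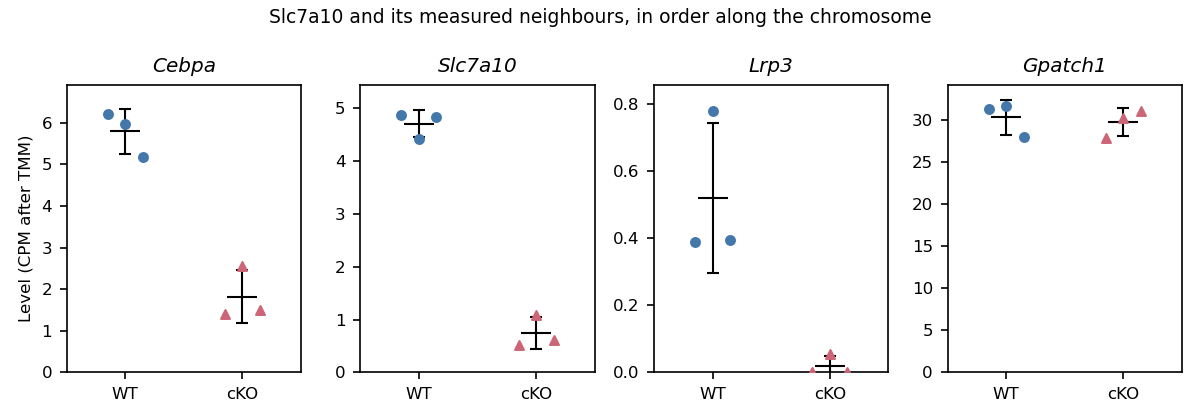
Level in CPM of Slc7a10 and of 3 of its 4 measured neighbours (all but Wdr88, near 0) in their order along chromosome 7, with a point per library and the mean and SD of 3 libraries as bars. Cebpa, Slc7a10 and Lrp3 were lower in all cKO libraries, and Gpatch1 overlapped between groups at 27.9 to 31.7 CPM.

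The sequences before the start sites of 4 members are shown, for the called gene, for 2 abundant genes that varied between libraries, and for Slc7a11, a member known as a target of amino acid shortage. Each is the 250 bases before a start site, 5′ to 3′, from RefSeq on GRCm38.p6, the build of mm10. They are Slc7a10 (chr7:35186135-35186384, plus strand), Slc3a2 (chr19:8713898-8714147, minus strand), Slc38a2 (chr15:96699729-96699978, minus strand) and Slc7a11 (chr3:50443614-50443863, minus strand). Capitals mark the GC box GGGCGG on either strand in the first 3, and the amino acid response element TGATGNAA, the site bound by ATF4 with C/EBP partners, on either strand in Slc7a11.
Slc7a10: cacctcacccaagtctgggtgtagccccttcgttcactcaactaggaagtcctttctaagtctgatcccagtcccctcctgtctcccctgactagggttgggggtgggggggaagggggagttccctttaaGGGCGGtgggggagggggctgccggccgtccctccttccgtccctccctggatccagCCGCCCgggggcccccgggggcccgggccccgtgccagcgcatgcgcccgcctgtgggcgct
Slc3a2: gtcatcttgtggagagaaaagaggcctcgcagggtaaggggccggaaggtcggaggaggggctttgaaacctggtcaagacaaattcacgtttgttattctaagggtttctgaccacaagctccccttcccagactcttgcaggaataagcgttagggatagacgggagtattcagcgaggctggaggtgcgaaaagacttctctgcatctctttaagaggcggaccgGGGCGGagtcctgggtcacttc
Slc38a2: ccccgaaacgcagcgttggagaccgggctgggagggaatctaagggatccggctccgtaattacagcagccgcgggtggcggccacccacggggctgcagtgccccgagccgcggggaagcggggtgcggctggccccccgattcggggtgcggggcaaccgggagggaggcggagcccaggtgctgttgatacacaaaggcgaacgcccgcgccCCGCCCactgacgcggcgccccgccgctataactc
Slc7a11: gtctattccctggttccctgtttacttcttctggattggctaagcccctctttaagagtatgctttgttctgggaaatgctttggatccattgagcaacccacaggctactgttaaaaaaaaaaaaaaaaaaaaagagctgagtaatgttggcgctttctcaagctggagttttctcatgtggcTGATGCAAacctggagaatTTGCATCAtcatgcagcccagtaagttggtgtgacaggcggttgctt

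The upstream stretch of Slc7a10 was 69.6% G and C and held 2 GC boxes, those of Slc3a2 and Slc38a2 were 53.6% and 72.0% G and C with 1 each, and that of Slc7a11 was 43.2%. The amino acid response element occurred 2 times in the stretch of Slc7a11 and not in the other 3. Promoter windows, from 250 bases before to 50 after a start site, were matched for 42 of the 57 genes. Among these, 4 genes held the response element, Slc7a11, Slc7a7, Slc1a4 and Slc6a21, against 4.51% of all genes with a window, and 27 held a GC box against 38.2%. Of the 4, only Slc1a4 and Slc7a7 had enough reads to test, and both stood under 1 FPKM. These matches describe letters in a window and say nothing of binding. Sites outside the windows, such as in introns, were not searched, so no gene is shown to lack the element.

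Among the heavy chains, Slc3a2 varied more between libraries than between groups. It stood at 148, 275 and 142 CPM in WT against 208, 158 and 122 in cKO. WT2 was highest of all and cKO1 second, and the groups overlapped. The log2 fold change was -0.22 ± 0.29 (SE; adjusted p = 0.955 in edgeR's test), and it was 0.16 without WT2. The other heavy chain, Slc3a1 (rBAT, the kidney and gut partner of the cystine transporter), stood at 14, 19.6 and 17.1 CPM in WT against 19.8, 14.5 and 21.3 in cKO, again with overlap. Its GENCODE exons share 601 bases with the opposite-strand gene Prepl (22 to 26.3 CPM), which is 26.5% of its exonic bases, so part of its reads may belong to Prepl and its level is uncertain.

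The 2 abundant light chains differed by less between groups than between libraries. Slc7a5 (LAT1, which exchanges large neutral amino acids such as leucine) stood at 59.4, 80.1 and 58.5 CPM in WT against 82.1, 68.8 and 60.8 in cKO. Here too WT2 and cKO1 were the highest libraries of their groups. The change was 0.10 ± 0.16 on the log2 scale (SE), with a 95% confidence interval of -0.27 to 0.47. Slc7a6 (y+LAT2, which trades arginine for neutral amino acids) stood at 87.1, 96.4 and 87.2 CPM in WT against 89.8, 83.9 and 84.0 in cKO. Its log2 interval of -0.25 to 0.10 lay within 2-fold. Slc7a6os, 1724 bases from Slc7a6 and not a transporter, stood at 31.9, 43.9 and 34.9 CPM in WT against 40.5, 36.2 and 33.7 in cKO, with WT2 and cKO1 highest (log2 interval -0.32 to 0.31).

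The remaining light chains were scarce. Slc7a7 (y+LAT1) ranged from 0.832 to 1.64 CPM over the 6 libraries and Slc7a8 (LAT2) from 0.501 to 1.30 CPM. Neither group was set apart for these genes, and 232 exonic bases of Slc7a7 are shared with the far more abundant opposite-strand gene Oxa1l (83.3 to 90.9 CPM). Slc7a11 (xCT, which imports cystine in exchange for glutamate) had 3.57, 2.14 and 0 estimated reads in WT against 0, 3.09 and 3.24 in cKO and was too low to test. In FPKM, Slc7a10 made up 5.81% ± 0.533 of the 6 light chains Slc7a5, Slc7a6, Slc7a7, Slc7a8, Slc7a10 and Slc7a11 in WT and 0.958% ± 0.344 in cKO (SD, n = 3). The sum of the light chains nevertheless stood at 39.2 ± 1.59 and 38 ± 2.01 FPKM, since Slc7a5 and Slc7a6 supplied most of it. The ratio of Slc3a2 to that sum was 1.78, 3.08 and 1.70 in WT and 2.28, 1.94 and 1.52 in cKO, highest in WT2 and cKO1.

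Cationic amino acid transporters of the Slc7 family need no heavy chain. Slc7a1 (CAT1, an importer of arginine and lysine) stood at 86.8, 81.0 and 83.5 CPM in WT against 96.5, 85.6 and 88.9 in cKO. The groups overlapped narrowly, since cKO2 lay below WT1. Its log2 fold change was 0.11 ± 0.07 (SE; adjusted p = 0.844 in edgeR's test). Slc7a2 and Slc7a3, which carry the same substrates, and Slc7a4 and Slc7a14 of the same branch ranged from 0.436 to 2.51 CPM with overlapping groups.

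Slc1 members were led by Slc1a5. It stood at 337, 344 and 346 CPM in WT against 315, 308 and 377 in cKO, so the WT libraries lay inside the range of the cKO libraries. The log2 interval of -0.26 to 0.19 lay within 2-fold. Slc1a4 (ASCT1, an exchanger of alanine, serine and cysteine) ranged from 0.523 to 1.47 CPM, with overlap. The glutamate transporter Slc1a7 stood at 1.33, 1.32 and 1.30 CPM in WT against 0.872, 1.36 and 1.17 in cKO, where cKO2 reached above all WT libraries. The glutamate transporters Slc1a1, Slc1a2, Slc1a3 and Slc1a6 were too low to test.

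Slc38a2 had the widest spread among the abundant members. It stood at 292, 744 and 294 CPM in WT against 574, 462 and 302 in cKO. WT1, WT3 and cKO3 were alike and low, and WT2, cKO1 and cKO2 were high. The log2 fold change was 0.01 ± 0.40 (SE), with a 95% confidence interval of -0.94 to 0.95, and it was 0.61 without WT2 and -0.21 without cKO1. Slc38a6, a less studied member, followed the same order of WT2, cKO1 and cKO2 at 65.8, 50.4 and 42.5 CPM over 39.9, 35.8 and 32.1 CPM in cKO3, WT3 and WT1. Atf4, which encodes the transcription factor of the amino acid response, was high in the same 3 libraries, at 677 CPM in WT2, 479 in cKO1 and 537 in cKO2. It stood at 279 to 314 CPM in the others and was singled out after its values were seen. Other genes of the amino acid response went both ways. Ddit3, Trib3, Ppp1r15a and Aldh18a1 were also highest in these 3 libraries. Ddit4 was instead lowest in WT2 and cKO1 (28.6 and 27.3 against 78.4 to 96.0 CPM). Asns, Psat1, Phgdh and Mthfd2 were lowest in cKO1. A shared response was not tested. Tnfaip3, a feedback inhibitor of NF-kappaB, had 4900 CPM in WT2, 4610 in cKO1 and 1150 to 2330 elsewhere.

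**Figure D4:**
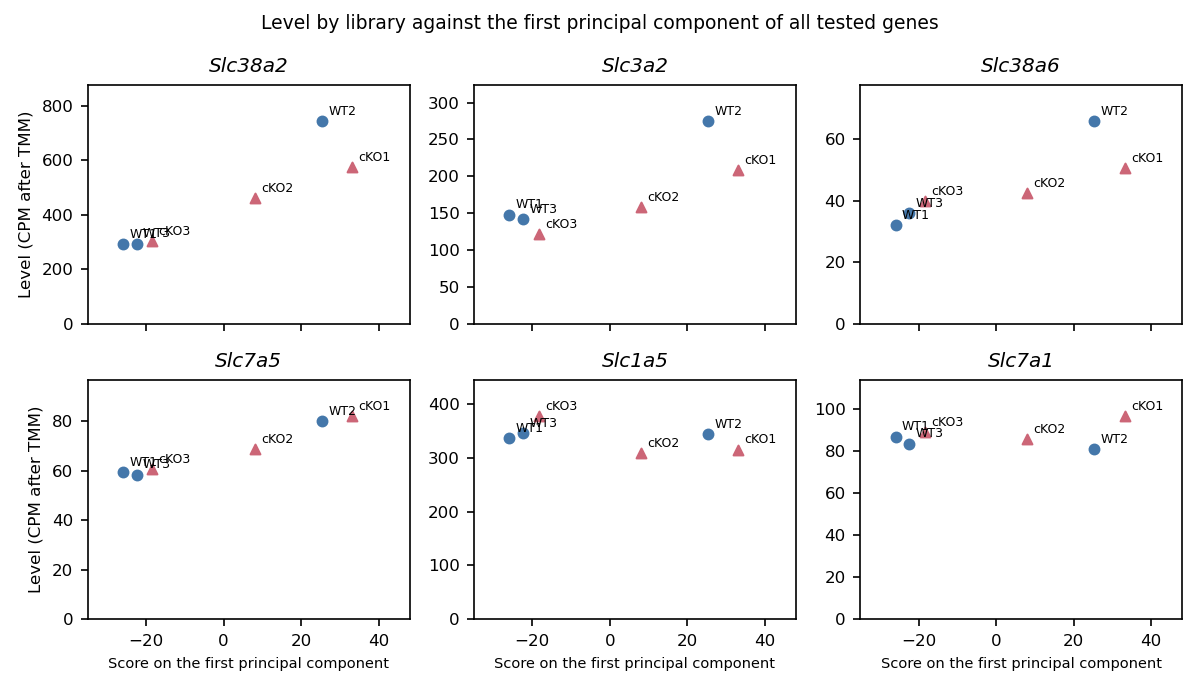
Level in CPM of 6 transporters in each library against the score of the library on the first principal component of all tested genes, with WT as circles and cKO as triangles. Slc38a2, Slc3a2, Slc38a6 and Slc7a5 were higher in WT2 and cKO1 at the right, whereas Slc1a5 and Slc7a1 ranged only from 308 to 377 and from 81.0 to 96.5 CPM.

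Of the 31 tested genes, 11 were highest within their group in WT2 and in cKO1, against 20.3% of all genes tested, and 4 were lowest in both, against 20.6%. The 11 included Slc3a2, Slc7a5, Slc7a6, Slc38a1, Slc38a2, Slc38a6 and Slc38a9. How far the state of those libraries enters the comparison of these genes was not tested beyond leaving the libraries out.

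The other Slc38 members were steadier. Slc38a1 (SNAT1, a glutamine importer) stood at 174, 187 and 169 CPM in WT against 177, 153 and 151 in cKO. The groups overlapped through cKO1. Its log2 fold change was -0.14 ± 0.09 (SE; adjusted p = 0.827 in edgeR's test). Slc38a9, which senses arginine at the lysosome and informs mTORC1, stood at 46.4, 68.3 and 51.9 CPM in WT against 57.9, 51.5 and 48.7 in cKO. Slc38a7, which exports glutamine from lysosomes, ranged from 18.5 to 25.0 CPM in WT against 19.5 to 25.3 in cKO, lowest in WT2 and cKO1. Slc38a10 stood at 114, 92.9 and 112 CPM in WT against 104, 104 and 105 in cKO, within the WT range. Slc38a4, Slc38a8 and Slc38a11 were too low to test.

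Some Slc36 carriers move small amino acids with protons, in part out of lysosomes. Slc36a1 (PAT1) stood at 36.4, 36.5 and 34.2 CPM in WT against 49.9, 34.5 and 35.0 in cKO, so cKO1 alone was high. Slc36a4 (PAT4) stood at 22.5, 23.7 and 20.6 CPM in WT against 20.1, 21.0 and 18.4 in cKO, a log2 fold change of -0.16 ± 0.09 (SE) with an adjusted p of 0.792 in edgeR's test. The cKO libraries lay mostly below WT, but cKO2 overlapped WT3. Slc36a3 had 2 to 18 reads and Slc36a2 at most 1.02 reads in a library.

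Slc43 carriers work by facilitated diffusion. Slc43a3, known as a purine nucleobase carrier rather than an amino acid carrier, was the other tested gene whose groups did not overlap. It stood at 21.6, 17.4 and 17.4 CPM in WT against 9.48, 15.7 and 14.3 in cKO. All cKO libraries lay lower, cKO1 by the most. The log2 fold change was -0.51 ± 0.20 (SE) and the adjusted p in edgeR's test was 0.569, so Slc43a3 was not called. Its chromosome 2 neighbour Slc43a1 (LAT3, for large neutral amino acids), 72959 bases away, stood at 9.82, 7.71 and 9.91 CPM in WT against 8.37, 6.71 and 7.57 in cKO, with WT2 overlapping cKO (log2 fold change -0.28 ± 0.16 SE). Slc43a2 (LAT4) stood at 87.4, 59.9 and 84.1 CPM in WT against 84.7, 72.6 and 77.8 in cKO and had WT2 as its lowest library.

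The Slc6 family was nearly silent apart from 1 gene. Slc6a6, the taurine transporter, stood at 137, 140 and 138 CPM in WT against 166, 146 and 137 in cKO. The WT libraries were tightly grouped and cKO1 was the highest. Its log2 interval was -0.09 to 0.31. Slc6a8, the creatine transporter, stood at 1.89, 2.87 and 1.80 CPM in WT against 2.04, 0.709 and 1.17 in cKO. The groups overlapped through cKO1, with a log2 fold change of -0.74 ± 0.42 (SE) with an adjusted p of 0.785 in edgeR's test. Slc6a7, the proline transporter, stood at 0.555, 0.658 and 1.24 CPM in WT against 0.407, 0.654 and 0.334 in cKO, also with overlap (log2 fold change -0.80 ± 0.46 SE).

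Too low to test were 26 genes, of which 17 belong to the 20 genes of Slc6. They include the transporters of the neurotransmitters GABA (Slc6a11, Slc6a13), noradrenaline (Slc6a2), serotonin (Slc6a4) and glycine (Slc6a5, Slc6a9), the betaine carrier Slc6a12 and the gut and kidney transporter Slc6a19. Others of Slc6 were Slc6a15, Slc6a16, Slc6a17, Slc6a18, Slc6a19os, Slc6a20a, Slc6a20b and Slc6a21. From the remaining families came 4 genes of Slc1, 3 of Slc38 and 1 each of Slc7 and Slc36, all named above. In 25 of the 26, no library reached 10 reads, and Slc1a2 reached 15.74 reads in cKO3 alone. A total of at most 3 reads over all 6 libraries was seen for 10 of them. Each of the 26 had reads in at least 1 library, so they were detected but too low to test. A library with 0 reads allows up to 3, counting error only.

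Summed over each family, no group separated. The Slc38 sum was 146, 254 and 149 FPKM in WT and 208, 184 and 148 FPKM in cKO, with the highest value in WT2. The Slc1 sum was 144 ± 4.84 and 139 ± 18 FPKM (SD, n = 3), the Slc3 sum 88.2 ± 34.8 and 75.2 ± 17.9, and the Slc7 sum 77.6 ± 4.18 and 77.5 ± 3.82, of which Slc7a6os, not a transporter, supplied 25.9 and 26.1 FPKM. For Slc6 the values were 24.0 ± 0.277 and 25.1 ± 1.89 FPKM, for Slc43 22.1 ± 3.48 and 19.2 ± 0.884, and for Slc36 11.3 ± 0.624 and 11.3 ± 1.46.

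Of the 7 tested heteromeric transporter chains Slc7a10 alone was called (median log2 fold change 0.01), and of the 5 cationic transporters none (median 0.11). Genes that act beside the transporters were not called either. None of the 37 tested genes of amino acid sensing at the lysosome passed (median log2 fold change 0.04), a list that holds Slc38a9, Slc36a1 and Slc36a4. Those with the lowest p were Lamtor4, a Ragulator subunit, at 12.0, 14.3 and 17.2 CPM in WT against 10.2, 9.98 and 7.57 in cKO, and Nprl2, a subunit of the mTORC1 inhibitor GATOR1, at 18 to 19.6 and 22.1 to 23.4 CPM. Neither overlapped between groups, with adjusted p-values of 0.328 and 0.466 in edgeR's test. None of the 18 tested amino acid carriers of other families passed (median 0.03); the lowest p belonged to Slc17a9, better known as a vesicular nucleotide carrier, at 124 to 129 and 144 to 172 CPM (adjusted p = 0.361 in edgeR's test), and the mitochondrial carrier Sfxn3, at 69.7 to 80.4 and 84.8 to 98.1 CPM (adjusted p = 0.568).

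None of the 25 tested genes of the amino acid response passed (median -0.02). Asns, which makes asparagine, stood at 9.32, 10.7 and 13.9 CPM in WT against 5.41, 5.72 and 8.47 in cKO, without overlap (adjusted p = 0.366 in edgeR's test), and Atf3, a stress-induced transcription factor, at 5.16, 14.4 and 4.67 CPM in WT against 5.06, 4.47 and 1.11 in cKO. None of the 29 tested enzymes that use transported amino acids passed (median -0.01). Bcat2, which starts the breakdown of branched-chain amino acids, stood at 34.6 to 38.7 CPM in WT and 41.1 to 48 CPM in cKO, and Sms, which makes spermine, at 40.9 to 48.4 and 37.8 to 39.6 CPM (adjusted p = 0.656 and 0.702 in edgeR's test).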

How the data were processed

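RNA-seq libraries, 3 WT and 3 cKO, were compared, grouped by the titles in the labels. The authors deposited estimated counts per gene, not normalized and about 46% not whole to within 0.01 (45.4% to 46.3%), and also FPKM values, a unit judged from the values themselves. Without role or order, mm10, DESeq2 1.16.1, featureCounts 1.5.0-p3 and HISAT2 2.0.5 appear in the submitters' processing notes. Whether counting used strand was not given in the sources used here.

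Counts were rounded, genes passing filterByExpr (minimum count 10) kept, TMM scaling applied and edgeR 4.0.16 quasi-likelihood F tests run in R 4.3.3, adjusted by Benjamini-Hochberg over 12887 genes. The code was tested on simulated data. Alternatives were DESeq2 1.42.0, limma 3.58.1 (voom, or log2 of FPKM plus 0.1), other scalings and filters, the newer edgeR fit, the replicate block and libraries left out. Coordinates are RefSeq on GRCm38.p6, which matched all 57 genes; exon overlaps are GENCODE. Values in full were given for called members, the 8 lowest p, the 2 most abundant of each family and 12 members known from T cells. Other lists gave their called genes or 2 lowest p. Members and lists were chosen with earlier results of these data known. Not every untested member is reported here by name.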

Additional observations from a re-analysis of the deposited data

How the results depend on the processing

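Slc7a10 was called in 7 of 16 alternatives and was lower in all 16 (log2 fold change -3.04 to -2.39); because its groups do not overlap, the direction could hardly change. It was the only member called in any of them. No member was called with the replicate block (0; adjusted p of Slc7a10 0.189), with the authors' FPKM (0), without WT2 and cKO1 (0) or without any single library (0 in each). Over all genes the count of 27 became 173 with DESeq2, 43 with no low-count filter, 0 with the block, 0 with FPKM and 71 without WT2 and cKO1, and ranged from 0 to 30 with single libraries left out; at an unadjusted p under 0.05 the block gave 811 genes and FPKM 929. The labels do not say whether equal replicate numbers pair libraries. Correlations of deviations between equal numbers were -0.278, 0.0624 and 0.261, and not every library correlated best with its own number. With so few libraries, such correlations cannot decide whether the libraries were paired. The median of the tested transporters ranged from -0.15 to -0.03 with single libraries left out.

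Uncalled members near 0 changed sign. With single libraries left out, log2 fold changes ranged from -0.13 to 0.01 for Slc1a5, -0.04 to 0.24 for Slc36a1, -0.12 to 0.03 for Slc38a10, -0.22 to 0.61 for Slc38a2, -0.19 to 0.10 for Slc38a9, -0.43 to 0.16 for Slc3a2, -0.13 to 0.12 for Slc43a2, -0.03 to 0.26 for Slc7a5 and -0.10 to 0.14 for Slc7a6os. Without WT2 and cKO1 they were 0.01 for Slc1a5, -0.02 for Slc36a1, 0.03 for Slc38a9, -0.19 for Slc43a2 and 0.07 for Slc7a6os. Slc7a6os was at 0.00 with DESeq2, 0.01 with voom, 0.00 with the block and 0.01 with FPKM. The causes were not tested. Depth limits the 11 tested genes under 1 FPKM and the 26 untested ones.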

Other observations

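The reads and the FPKM of a gene imply the length that the authors' values were divided by. For several transporters that length is not what the annotation gives or differs between libraries. For Slc3a1 it was 8.95 to 10.8 kb, whereas the GENCODE exons of the gene cover 2271 bases. For Slc38a9 it was 7.6 to 8.6 kb against 16704 bases. The implied length differed most between libraries for the scarce Slc1a7 (2.54 to 4.04 kb), Slc7a3 (1.89 to 2.6 kb) and Slc7a8 (3.08 to 4.03 kb). For Slc38a6 the implied length was 1.72 kb in WT2 and 1.78 kb in cKO1 and 1.90 to 2.19 kb in the others, so FPKM widened the difference between libraries, from 32.1 and 65.8 CPM in WT1 and WT2 to 15.43 and 37.23 FPKM. Slc7a6 went the other way, with 5.88 kb in WT2 and 4.78 to 5.33 kb in the others, so that WT2 was its highest library in CPM (96.4) and its lowest in FPKM (15.96). For Slc38a2 the implied length was 4.64 to 4.66 kb in all libraries, and its spread was alike on both scales.

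Members that lie next to each other on a chromosome did not share a level. Slc38a1 and Slc38a2 are 43954 bases apart on chromosome 15, and Slc38a2 ranged 2.55-fold between its lowest and highest library while Slc38a1 ranged 1.24-fold. Slc36a1 stood at 34.2 to 49.9 CPM, and Slc36a2, 19223 bases away on chromosome 11, had 0 reads in every library but cKO3.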
